A study of Mus musculus with 60 samples.

Results

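The genes described here are Plin4 and 9 other genes of glucocorticoid signalling, chosen by name: Fkbp5, Sgk1, Tsc22d3, Zbtb16, Pdk4 and Cdkn1a as targets, Nr3c1 and Nr3c2 as receptors, and Hsd11b1 as the activating enzyme. They are 10 of the 24508 genes in the expression table, and all 10 were detected in every library. Their levels in the same libraries were known when they were put together. Their differences between genotypes are therefore given as a description, with no test.

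Glucocorticoids are steroid hormones of the adrenal cortex that enter cells and bind the glucocorticoid receptor, a transcription factor held in the cytoplasm by heat shock proteins and their partner FKBP5. The bound receptor moves to the nucleus and activates genes through short palindromic sites, the glucocorticoid response elements. The hippocampus carries both the glucocorticoid and the mineralocorticoid receptor at high levels and takes part in the feedback that limits hormone release. These sentences are background and not results.

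RNA from the hippocampus of 30-week-old wild-type (WT) and R6/1 mice was sequenced, with 9 independent samples per genotype. R6/1 mice express exon 1 of the human huntingtin gene with a CAG expansion from an added transgene, under the human gene's own promoter, and keep both mouse copies of Htt. The R6/1 line is thus a fragment model of Huntington's disease and not a change in the mouse gene. Both genotypes were on a mixed CBA x C57BL/6 background. No drug or hormone was given according to the labels, and no hormone level is among the data. Lamin B1 chromatin immunoprecipitation was made from 3 pools of 5 mice per genotype, and its domain lists are used here only for position.

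The libraries held 12299434 to 16736544 reads on genes. Genes averaging 0.5 RPKM or more (reads per kilobase, scaled for depth) were tested; of these 14446, 48.3% had a limma adjusted p below 0.05 between genotypes, 24.8% higher and 23.5% lower in R6/1. All 18 libraries had Xist at 0.0365 RPKM or less and the Y-linked Ddx3y at 11.6 RPKM or more. Mouse Htt lay between 15.9 and 21.5 RPKM, which does not check the transgene, a human sequence. R6/1 replicate 5 stood apart from the other R6/1 libraries: it was the lowest or the highest of the 9 for 31.3% of tested genes. Only WT replicate 1, at 37.3% among the WT libraries, was more often at an end of its genotype. The remaining 16 libraries were at an end for 14.2% to 25.6% of genes.

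The palindrome AGAACA, 3 bases of any kind, TGTTCT, a full consensus of the glucocorticoid response element, was searched on both strands in RefSeq promoters (build GRCm38.p6, from 250 bases before to 50 bases after each start). It was found in 3 of 32851 promoters, or 0.00913%, and 1 of these was an Sgk1 promoter at chr10:21993640-21993939 on the plus strand. It is shown because it holds the only full match among the 16 promoters listed for 8 of the 10 genes; Zbtb16 and Nr3c1 had no promoter entry. The capitals mark the palindrome, whose first base is at position -189 from the start.
Sgk1 promoter: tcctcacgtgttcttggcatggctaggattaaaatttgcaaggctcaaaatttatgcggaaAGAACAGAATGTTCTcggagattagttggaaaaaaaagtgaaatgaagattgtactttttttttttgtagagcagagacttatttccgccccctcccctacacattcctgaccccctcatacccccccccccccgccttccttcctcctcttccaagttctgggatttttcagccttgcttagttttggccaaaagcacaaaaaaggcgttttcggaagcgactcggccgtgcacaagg

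A looser palindrome, GNACA, 3 bases of any kind, TGTNC (N being any base), keeps only the best conserved letters of the element, and every full match is also a match to it. Searched on both strands within 10 kb of each protein-coding start (build NCBIM37), it occurred near 28.6% of 22367 starts and near 5 of the 10 genes. Fkbp5 had 5 matches, a number reached by 0.0402% of starts, and Plin4 had 3, reached by 0.689%. Sgk1, Pdk4 and Cdkn1a had 1 match each. The full palindrome was near 0.389% of starts and near 0 of the 10 in these windows, which were taken around the outermost annotated start of each gene; the Sgk1 promoter above belongs to another of its starts. A match is a description of letters and not of receptor binding, which was not measured. The matches of Plin4 and Fkbp5 are shown because these genes had the most, each on the gene's strand with 10 bases on either side and the palindrome in capitals.
Plin4, intron, chr17:56248265-56248297, minus strand: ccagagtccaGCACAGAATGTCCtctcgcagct
Plin4, intron, chr17:56245147-56245179, minus strand: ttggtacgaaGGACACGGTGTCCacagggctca
Plin4, exon, chr17:56241711-56241743, minus strand: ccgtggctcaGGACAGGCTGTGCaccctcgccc
Fkbp5, upstream, chr17:28660113-28660145, minus strand: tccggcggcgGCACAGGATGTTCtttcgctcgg
Fkbp5, upstream, chr17:28659063-28659095, minus strand: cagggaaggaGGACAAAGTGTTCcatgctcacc
Fkbp5, upstream, chr17:28655967-28655999, minus strand: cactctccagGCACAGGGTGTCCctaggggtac
Fkbp5, upstream, chr17:28655115-28655147, minus strand: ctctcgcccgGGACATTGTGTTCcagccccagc
Fkbp5, intron, chr17:28650838-28650870, minus strand: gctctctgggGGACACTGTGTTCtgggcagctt
The Plin4 matches lay 0.94, 4.06 and 7.50 kb inside the gene from its start. The Fkbp5 matches ran from -5.66 kb to 3.62 kb relative to its start, negative values being upstream.

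Among the 7 targets, Plin4 was far higher in R6/1, without overlap, and Cdkn1a and Sgk1 were higher with some overlap. Fkbp5, Tsc22d3, Zbtb16 and Pdk4 overlapped more widely. All 3 of the receptors and the activating enzyme were lower. By the limma threshold, 6 of the 10 genes were called, 3 higher and 3 lower, beside 48.3% of all tested genes. Plin4 and Nr3c2, 2 of the 10, had no overlap between genotypes, beside 11.9% of all tested genes. Because the genes were picked with this contrast known, nothing is read from those counts. Fold changes are on the log2(RPKM + 0.5) scale, as R6/1 minus WT, with the standard error. The added 0.5 makes them smaller in size for genes at low RPKM, so sizes are not comparable between low and high genes. In bulk tissue, fewer cells of a type and less RNA per cell cannot be told apart.

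Plin4 encodes perilipin 4, a coat protein of lipid droplets best known in fat cells, and lies on chromosome 17 from 56240014 to 56249225 on the minus strand. Its level in WT was 0.441 RPKM in the lowest library, 0.691 in the median and 1.19 in the highest, from 32 to 91 reads. In R6/1 it was 3.24, 9.80 and 17.9 RPKM, from 269 to 1592 reads. Every R6/1 library was above every WT library, as for 5.50% of all tested genes. The mean (SD, n = 9 each) was 0.722 ± 0.249 in WT and 10.6 ± 4.19 in R6/1, a ratio of 14.7 and a log2 difference of 3.10 (SE 0.21). The lowest R6/1 value was that of replicate 5, and without it the R6/1 libraries ran from 8.15 to 17.9 RPKM and the log2 difference was 3.28. With all libraries, limma voom on the recovered reads gave a log2 difference of 3.89. Plin4 shares 8 exon bases with Hdgfrp2 on the opposite strand.

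**Figure D1:**
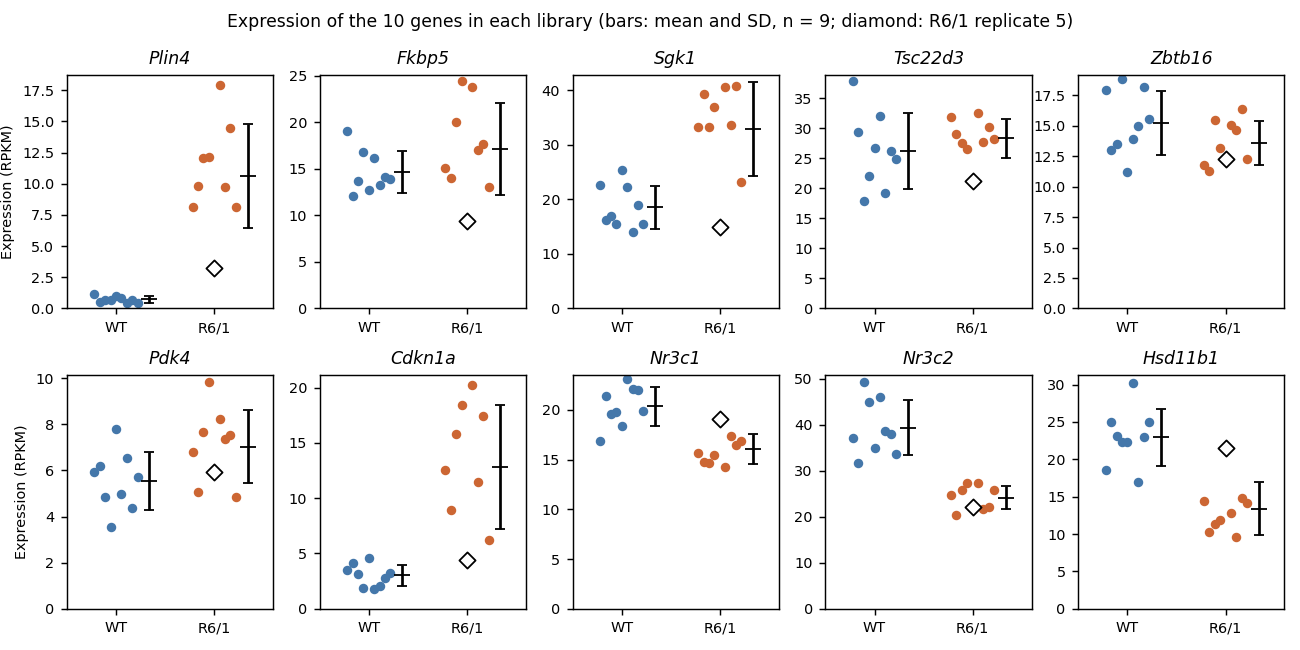
Expression of the 10 genes in RPKM (linear axes from 0), one point per library, with WT in blue, R6/1 in orange, R6/1 replicate 5 as a white diamond, and bars for the mean and SD of 9 libraries. Plin4 in R6/1 sits between 3.24 and 17.9 RPKM, all above the WT libraries, and replicate 5 is the lowest R6/1 library for Plin4, Fkbp5, Sgk1, Tsc22d3 and Cdkn1a.

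Cdkn1a encodes p21, an inhibitor of cyclin-dependent kinases that is induced by p53 and also by glucocorticoids (chromosome 17, 29227924 to 29237667). Its lowest, median and highest levels were 1.77, 3.15 and 4.60 RPKM in WT and 4.40, 12.5 and 20.2 RPKM in R6/1. The genotypes overlapped through R6/1 replicate 5 alone, since the other 8 R6/1 libraries were above the highest WT library. The means were 3.01 ± 0.991 and 12.8 ± 5.57 RPKM (SD, n = 9 each), with a log2 difference of 1.84 (SE 0.25), or 2.00 (SE 0.21) without replicate 5.

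Sgk1 encodes a serum- and glucocorticoid-regulated kinase that acts on ion channels and transporters (chromosome 10, 21601990 to 21719709). Levels were 14.0, 16.9 and 25.3 RPKM in WT (lowest, median, highest) and 15.0, 33.7 and 40.7 RPKM in R6/1. Of the 9 R6/1 libraries, 7 were above the highest WT library. The mean went from 18.6 ± 3.94 to 32.9 ± 8.61 RPKM (SD, n = 9 each), a log2 difference of 0.78 (SE 0.16), and 0.91 (SE 0.12) without replicate 5.

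The targets Fkbp5 and Tsc22d3 did not separate the genotypes. Fkbp5, the co-chaperone that lowers the receptor's affinity for hormone (chromosome 17, 28536040 to 28654469), was at 12.1, 13.9 and 19.1 RPKM in WT and 9.42, 17.1 and 24.4 RPKM in R6/1. Its R6/1 range enclosed the whole WT range only through replicate 5, since the other R6/1 libraries ran from 13.1 to 24.4 RPKM. The log2 difference of Fkbp5 was 0.18 (SE 0.14), or 0.28 (SE 0.12) without replicate 5. Tsc22d3, which encodes the anti-inflammatory protein GILZ (chromosome X, 137074067 to 137135198), was at 17.9, 26.2 and 38.0 RPKM in WT and 21.3, 28.2 and 32.5 RPKM in R6/1. Here the WT range enclosed the R6/1 range, with a log2 difference of 0.13 (SE 0.12).

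Zbtb16 encodes the zinc finger repressor PLZF (chromosome 9, 48462416 to 48644050). It was at 11.2, 15.0 and 18.8 RPKM in WT and 11.3, 13.2 and 16.3 RPKM in R6/1, inside the WT range throughout, with a log2 difference of -0.15 (SE 0.094). Pdk4 encodes a kinase that shuts off pyruvate dehydrogenase in fasting (chromosome 6, 5433351 to 5446309). It was at 3.56, 5.72 and 7.79 RPKM in WT and 4.86, 7.35 and 9.84 RPKM in R6/1, with 2 R6/1 libraries above the highest WT library. Its log2 difference was 0.32 (SE 0.13), which passed the call threshold under some settings and not under others.

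Nr3c1, the glucocorticoid receptor (chromosome 18, 39570199 to 39650955), was lower in R6/1. Its levels were 16.8, 19.9 and 23.1 RPKM in WT and 14.3, 15.7 and 19.1 RPKM in R6/1, with 6 of 9 R6/1 libraries below the lowest WT library. The mean was 20.3 ± 1.98 against 16.1 ± 1.54 RPKM (SD, n = 9 each), and the log2 difference was -0.33 (SE 0.061). The highest R6/1 library was replicate 5, at 19.1 RPKM, and without it the others reached 17.4 RPKM.

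Nr3c2, the mineralocorticoid receptor, binds the same hormone with higher affinity (chromosome 8, 79423341 to 79768911). Levels were 31.7, 37.9 and 49.4 RPKM in WT and 20.3, 24.8 and 27.2 RPKM in R6/1. Every R6/1 library was below every WT library, as for 6.38% of tested genes. Its mean fell from 39.3 ± 6.05 to 24.1 ± 2.56 RPKM (SD, n = 9 each), with a log2 difference of -0.69 (SE 0.081). R6/1 replicate 5, at 22.2 RPKM, was inside the range of the other R6/1 libraries for this gene. Nr3c2 shares 315 exon bases with the long noncoding gene Gm10649 on the opposite strand. The libraries were stranded, but the counting setting is not given in the sources used here, so reads of the pair may be mixed.

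Hsd11b1 encodes the enzyme that regenerates active hormone from its inert keto form inside cells (chromosome 1, 195047824 to 195090248). It was at 17.0, 23.0 and 30.3 RPKM in WT and 9.66, 12.8 and 21.5 RPKM in R6/1. Of the R6/1 libraries 8 of 9 were below the lowest WT library, and the exception was replicate 5, whose next neighbour was at 14.8 RPKM. The means were 22.9 ± 3.82 and 13.4 ± 3.53 RPKM (SD, n = 9 each), with a log2 difference of -0.77 (SE 0.12), or -0.86 (SE 0.10) without replicate 5.

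On the per-length RPKM scale, Plin4 was the lowest of the 10 genes in WT, and its R6/1 mean passed that of Pdk4, at 7.03 ± 1.58 RPKM (SD, n = 9). Spread within a genotype differed between the genes too. Plin4 varied by 5.51-fold and Cdkn1a by 4.60-fold between the highest and lowest R6/1 library, Nr3c1 by 1.34-fold and Nr3c2 by 1.34-fold. In WT the ratios were 2.69 for Plin4, 2.60 for Cdkn1a, 1.37 for Nr3c1 and 1.55 for Nr3c2.

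Whether the other genes followed Plin4 from library to library was examined inside each genotype, which does not use the genotype contrast. The genes were chosen with their levels in these libraries known, so their p-values and ranks below are a description and not independent support. Over the 9 R6/1 libraries, Sgk1, Cdkn1a and Fkbp5 were high where Plin4 was high, and Nr3c1 was low there. Pearson r and Spearman rho of log2(RPKM + 0.5) were each tested by a two-sided exact permutation test over all orders of 9 libraries, with Benjamini-Hochberg adjustment over 18 relations. Of the 9 relations, 4 passed in R6/1 and 1 of 9 in WT.

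Cdkn1a had r = 0.90 with Plin4 in R6/1 (exact permutation p = 0.000386, adjusted 0.00629) and rho = 0.87 (exact permutation p = 0.00451, adjusted 0.0271). Sgk1 had r = 0.91 (exact permutation p = 0.00133, adjusted 0.00629) and rho = 0.88 (exact permutation p = 0.00308, adjusted 0.0271). Fkbp5 had r = 0.89 (exact permutation p = 0.00140, adjusted 0.00629) and rho = 0.83 (exact permutation p = 0.00827, adjusted 0.0372). The receptor Nr3c1 went the other way, with r = -0.78 (exact permutation p = 0.0128, adjusted 0.0462), while its rho of -0.68 did not pass (exact permutation p = 0.0503, adjusted 0.129). The call for Nr3c1 was lost under 12 other settings. Among these was leaving out any 1 of R6/1 replicates 3, 4, 5, 6, 7 and 9.

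The remaining R6/1 relations did not pass. For Tsc22d3 r was 0.79 (exact permutation adjusted p = 0.0816) and rho 0.37 (exact permutation adjusted p = 0.538). For Hsd11b1 r was -0.63 (exact permutation adjusted p = 0.159) and rho -0.25. Zbtb16, Pdk4 and Nr3c2 had r of 0.61, 0.54 and 0.37 and rho of 0.68, 0.73 and 0.35, with exact permutation adjusted p of 0.143, 0.202 and 0.478 for r.

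The R6/1 relations that passed, and those of Tsc22d3 and Hsd11b1, leaned on 1 library. R6/1 replicate 5 had 3.24 RPKM of Plin4, and it held the lowest R6/1 level of Fkbp5, Sgk1, Tsc22d3 and Cdkn1a and the highest of Nr3c1 and Hsd11b1. Without it, 0 of 9 relations passed the adjusted exact permutation threshold over the 8 libraries left, and 3 of 9 were below 0.05 before adjustment. There r was 0.82 for Cdkn1a, 0.79 for Fkbp5 and 0.69 for Sgk1. It rose to 0.73 for Zbtb16 and to 0.63 for Pdk4. It was 0.29 for Tsc22d3, 0.069 for Hsd11b1 and -0.49 for Nr3c1. Leaving out the 2 libraries farthest from the Plin4 median, replicates 5 and 6, gave 0.79 for Cdkn1a (exact permutation p = 0.0375), 0.70 for Fkbp5 (exact permutation p = 0.0827) and 0.66 for Sgk1 (exact permutation p = 0.0867). It gave -0.25 for Tsc22d3 and -0.21 for Nr3c1. After adjustment 0 of 9 passed over these 7 libraries, with 0.312 for Cdkn1a, Fkbp5 and Sgk1 alike, although their r stayed at 0.66 or more. The relation of Nr3c1 shrank and that of Tsc22d3 changed sign, so these rest on those libraries.

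In WT, Sgk1 followed Plin4 even though Plin4 was low there, with r = 0.89 (exact permutation p = 0.000937, adjusted 0.00629) and rho = 0.93 (exact permutation p = 0.000750, adjusted 0.0135). Without the 2 libraries farthest from the Plin4 median, WT replicates 1 and 7, r was 0.89 (exact permutation p = 0.00437, adjusted 0.0786), so that the size was kept and the adjusted call was not. The other WT relations did not pass, with r of 0.64 for Tsc22d3, 0.57 for Fkbp5, 0.24 for Cdkn1a, 0.11 for Nr3c2, 0.10 for Pdk4, 0.017 for Zbtb16, -0.040 for Hsd11b1 and -0.60 for Nr3c1. Their rho ran from -0.45 for Nr3c1 to 0.67 for Tsc22d3, and the lowest exact permutation adjusted p among them for r was 0.143. Without WT replicate 1, the library with the highest WT level of Plin4, r was 0.40 for Tsc22d3, 0.22 for Fkbp5 and -0.27 for Nr3c1. For Sgk1 it was 0.91.

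**Figure D2:**
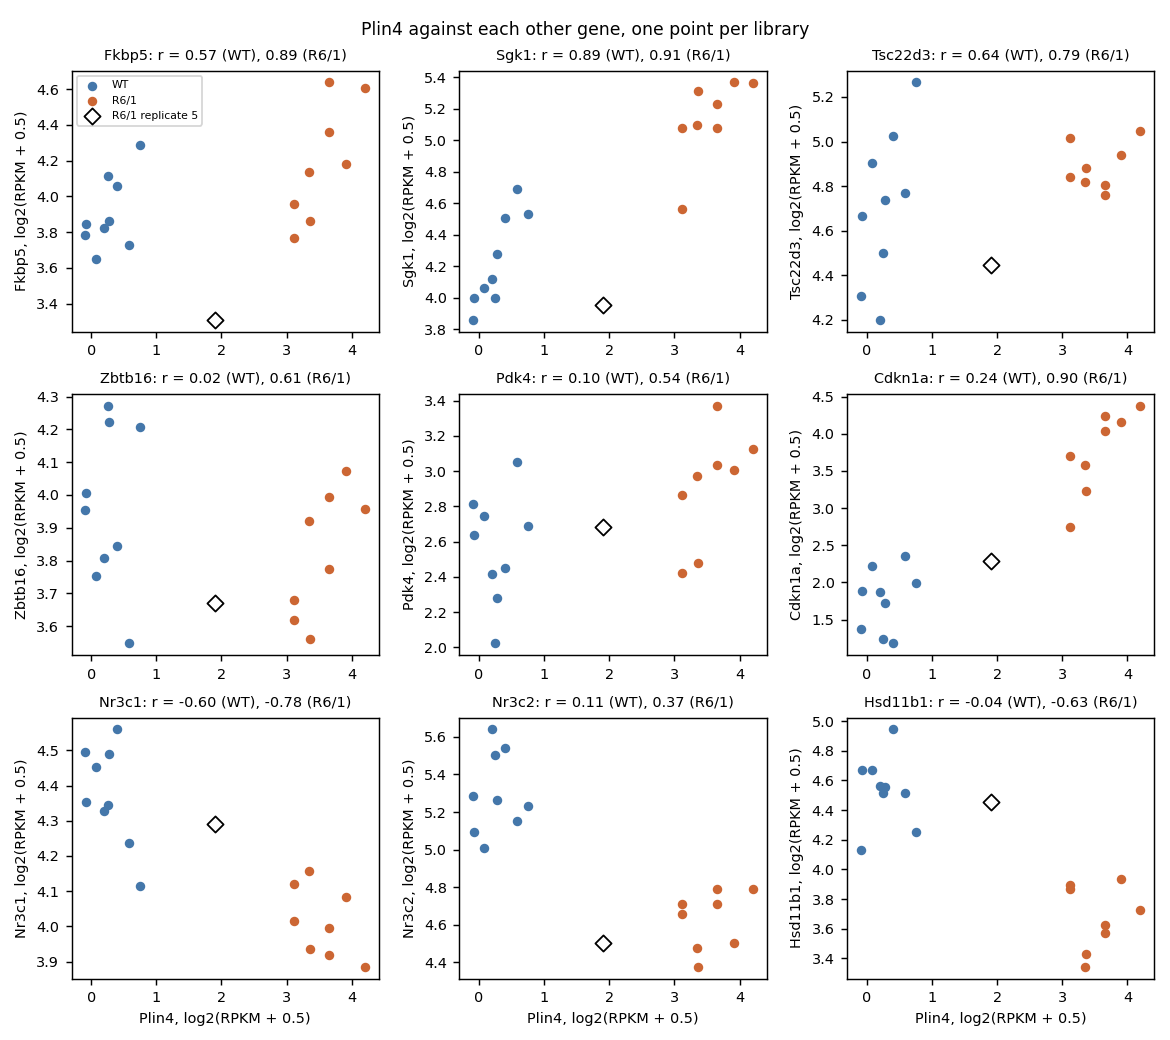
Each panel plots log2(RPKM + 0.5) of 1 gene against that of Plin4, one point per library, with WT in blue, R6/1 in orange and R6/1 replicate 5 as a white diamond; the panel titles give Pearson r within each genotype. Sgk1 rises with Plin4 in both genotypes (0.89 and 0.91), Cdkn1a and Fkbp5 in R6/1 (0.90 and 0.89), and the white diamond lies alone at the low end of Plin4 in R6/1.

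A relation that passed in R6/1 and not in WT is no difference between genotypes by itself. That difference, as Fisher's z of r in R6/1 minus WT, was tested by permutation of the genotype labels after centring and scaling within genotype. This test is approximate, since the scaling used the observed genotypes. The difference passed for 0 of 9 genes, before and after adjustment. Cdkn1a came nearest, with a difference of 1.21 (label permutation p = 0.0595, adjusted 0.536), and Fkbp5 followed in size at 0.78 (label permutation p = 0.346, adjusted 0.746). For Sgk1 it was 0.080 (label permutation p = 0.897).

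Set against all genes, the R6/1 correlations of 4 of the 6 other targets were near the top of the list. With r of at least 0.7 as the mark, 4.08% of 14444 tested genes reached it with Plin4 in R6/1 and 4.20% were at -0.7 or below, while 4 of the 9 genes were at or above 0.7. Sgk1 had 21 genes above it, Cdkn1a 34, Fkbp5 41 and Tsc22d3 271, while Zbtb16 had 1151 and Pdk4 1686. In WT, 3.48% of genes reached 0.7 and 3.50% were at -0.7 or below, and Sgk1 was the only one of the 9 to do so, with 12 genes above it. Without R6/1 replicate 5 the share of all genes at 0.7 or more was 2.13% (2.40% at -0.7 or below), and Cdkn1a, Fkbp5 and Zbtb16 were among them.

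**Figure D3:**
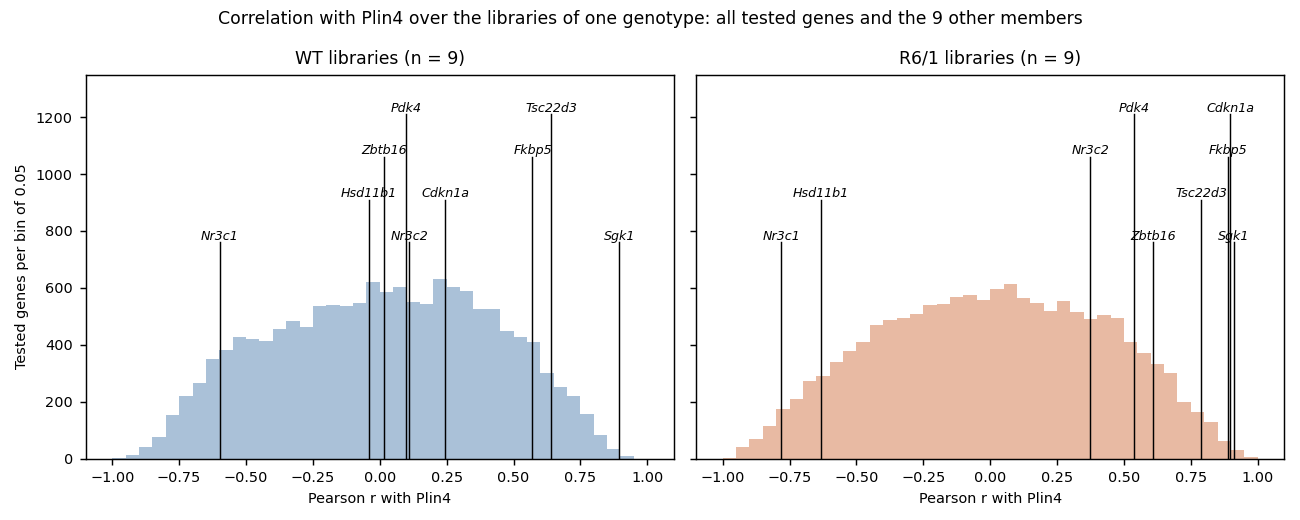
Number of tested genes (bins of 0.05) by their Pearson r with Plin4 over the 9 WT libraries and over the 9 R6/1 libraries, with vertical lines at the 9 other genes; the height of a line carries no value. Sgk1 lies at 0.89 in WT, and Sgk1, Cdkn1a and Fkbp5 lie between 0.89 and 0.91 in R6/1.

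The genes most like Plin4 over the 9 R6/1 libraries, by Pearson r among 13104 genes averaging 1 RPKM or more, included several from the list of glucocorticoid-induced genes. The top 10 were Phyhd1 (r = 0.98), Aff1 (0.97), Sult1a1 (0.96), Oscp1 (0.95), Hif3a (0.94), Fam107a (0.94), Xdh (0.94), Sde2 (0.93), Nrros (0.93) and Ehd3 (0.93). Sult1a1, Hif3a and Xdh were on that list, which was written with earlier results of these data known. The 5 most opposite were Mfap3l (-0.97), Dennd5a (-0.96), Pld4 (-0.95), Etv4 (-0.95) and Pld2 (-0.95). Without R6/1 replicate 5, Phyhd1 had r = 0.95, Aff1 0.96 and Mfap3l -0.91, the largest in size. The rest of the top 10 then lay between 0.78 (Sde2) and 0.89 (Fam107a). The rest of the 5 most opposite lay between -0.81 (Etv4) and -0.85 (Pld2).

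In the WT libraries, which did not choose these 15 genes, 9 of the 10 had a positive r and 2 of the 5 a negative one, and 0 of 15 passed the exact permutation test after adjustment. At an unadjusted p below 0.05 the count was 0 as well, the lowest being 0.0527 for Etv4 by exact permutation. Phyhd1, an enzyme of the phytanoyl-CoA dioxygenase family, rose from 4.88 ± 0.891 to 9.93 ± 2.61 RPKM (SD, n = 9 each, limma adjusted p = 1.62e-05), yet its r with Plin4 in WT was 0.028. Aff1, a subunit of the super elongation complex, rose from 3.49 ± 0.293 to 4.41 ± 0.323 RPKM (limma adjusted p = 0.000119). Mfap3l fell from 15.7 ± 1.02 to 11.4 ± 2.27 RPKM (limma adjusted p = 0.000129), and Etv4, an ETS transcription factor, from 3.06 ± 0.604 to 1.94 ± 0.539 RPKM (limma adjusted p = 0.000560).

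The wider list of genes known to be induced by glucocorticoids held members on both sides. Of 26 tested genes besides the 7 targets above, 8 were higher, 5 were lower and 13 did not pass, shares near the 24.8% and 23.5% of all tested genes, so that the count says nothing particular about the list. Their median log2 difference was 0.077, against 0.0036 for all tested genes. The count was 11 higher and 5 lower without R6/1 replicate 5, and 10 higher and 2 lower when each library was scaled by its own total of reads. That scaling moved the share of higher genes among all called genes from 51.4% to 66.9%.

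Hif3a, an inhibitory member of the hypoxia-inducible factor family, rose from 0.876 ± 0.396 to 3.05 ± 1.23 RPKM (SD, n = 9 each), by 1.31 on the log2 scale (SE 0.23, limma adjusted p = 0.000113). By limma voom on the recovered reads Hif3a rose by 1.84. Sult1a1, a phenol sulfotransferase, rose from 3.48 ± 0.837 to 9.86 ± 3.89 RPKM, by 1.27 (SE 0.24, limma adjusted p = 0.000186). Arrdc2, an arrestin-domain protein, rose from 3.60 ± 0.540 to 8.65 ± 3.44 RPKM, by 1.06 (SE 0.20, limma adjusted p = 0.000183). In all 3 the genotypes overlapped through R6/1 replicate 5, which differed from the WT median by -0.12, -0.41 and -0.074 on the log2 scale. Xdh, xanthine dehydrogenase, had no overlap: 1.12 to 1.87 RPKM in WT and 1.96 to 4.62 RPKM in R6/1 (log2 difference 0.90, SE 0.12, limma adjusted p = 2.81e-06).

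Among the genes that fell were Dusp1, a phosphatase of MAP kinases that is also an immediate early gene, by 0.53 on the log2 scale (limma adjusted p = 0.0421). Dusp1 was the least stable of the 4 largest decreases, and its adjusted p exceeded 0.05 under 17 of the other settings. Per1, a clock component, fell by 0.31 (limma adjusted p = 0.00525), Bcl6, a transcriptional repressor, by 0.26 (limma adjusted p = 0.000488), and Arrdc3 by 0.21 (limma adjusted p = 0.0107). Their ranges overlapped between genotypes.

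**Figure D4:**
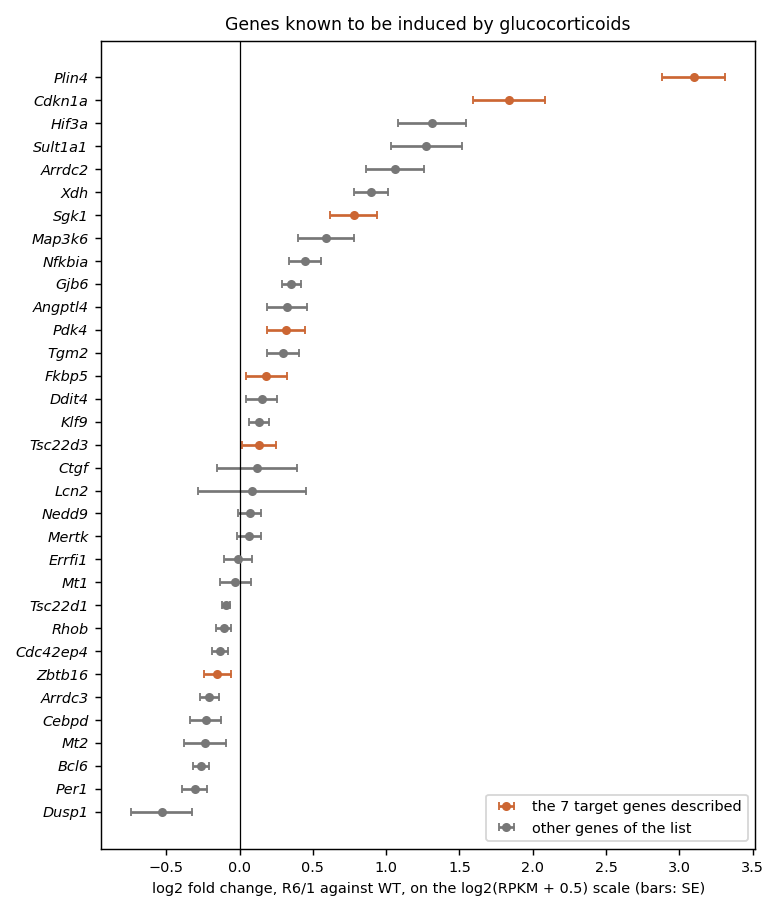
log2 fold change of R6/1 against WT on the log2(RPKM + 0.5) scale, with bars for the SE, for the 33 tested genes of the list of glucocorticoid-induced genes; the 7 targets described are in orange. Plin4 (3.10), Cdkn1a (1.84), Hif3a (1.31) and Sult1a1 (1.27) lead, while Dusp1 is at -0.53.

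Within R6/1, the same 26 genes tended to follow Plin4. Their r was positive for 23 and at least 0.7 for 10, with a median of 0.64, beside 4.08% of all genes at 0.7 or more. Without R6/1 replicate 5 the numbers were 21 positive and 5 at 0.7 or more, with a median of 0.32, beside 2.13% of all genes. That library was the lowest R6/1 library for 16 of the 26 genes and for 16.1% of all tested genes. In WT, 22 were positive and 5 at 0.7 or more, with a median of 0.39, beside 3.48% of all genes. The difference between the genotypes in these counts was not tested. The list was written with earlier results of these data known, so its counts are a description and not independent support. Genes of the list that reached 0.7 in R6/1 with and without replicate 5 were Hif3a (0.94 and 0.80), Sult1a1 (0.96 and 0.86), Xdh (0.94 and 0.85), Nfkbia (0.90 and 0.81) and Klf9 (0.79 and 0.82), the last 2 singled out after their values were seen.

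**Figure D5:**
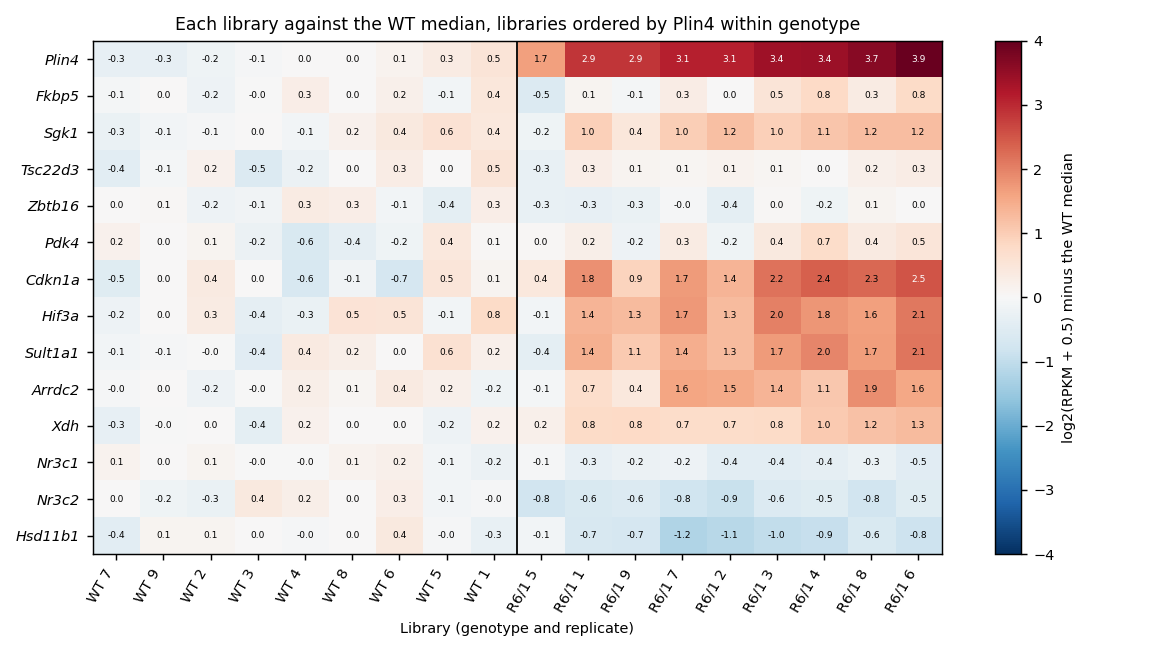
Difference of log2(RPKM + 0.5) from the WT median for the 10 genes and 4 further list genes (rows) in the 18 libraries (columns), ordered by Plin4 within each genotype, with red above and blue below the WT median. R6/1 replicate 5 differs from the WT median by 1.65 for Plin4, -0.76 for Nr3c2 and -0.54 for Fkbp5, and the remaining genes there lie between -0.41 (Sult1a1) and 0.42 (Cdkn1a).

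Among the list of receptors, metabolic enzymes, chaperones and cofactors, 24 genes outside the 10 were tested, with 10 higher, 4 lower and a median log2 difference of 0.043, beside 24.8% higher and 23.5% lower among all tested genes. The increases included Hspa8, the constitutive heat shock cognate (0.57, limma adjusted p = 2.63e-07), and Fkbp4, the co-chaperone that competes with FKBP5 for the receptor complex (0.35, limma adjusted p = 1.44e-05). Fkbp4 was at 39.1 to 47.9 RPKM in WT and 48.1 to 63.8 RPKM in R6/1, with no overlap. The coactivators Crebbp and Ncoa1 rose by 0.45 (limma adjusted p = 3.65e-05) and 0.36 (limma adjusted p = 2.96e-06).

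The largest decreases of that list were in the corticotropin-releasing hormone system. Crhbp, its binding protein, was at 10.3 to 15.1 RPKM in WT and 3.54 to 7.70 RPKM in R6/1 (log2 difference -1.21, SE 0.11, limma adjusted p = 2.44e-08). Crh, the hormone itself, fell from 0.904 ± 0.379 to 0.281 ± 0.112 RPKM (log2 difference -0.81, limma adjusted p = 8.13e-05). Its receptor Crhr1 fell from 4.90 ± 0.713 to 3.23 ± 0.654 RPKM (log2 difference -0.54, limma adjusted p = 0.000141). At the low level of Crh the added 0.5 RPKM shrinks the difference, and limma voom on the recovered reads gave -1.52. Crhbp lay between -1.29 and -1.14 in the other settings. Srd5a1, a steroid reductase, fell by 0.29 (limma adjusted p = 0.0393), a call lost under 14 other settings. Crh and Crhbp are made by interneurons in the hippocampus, and 6 of 8 inhibitory neuron markers were lower in R6/1, with a summed level of 391 to 489 RPKM in WT and 236 to 302 RPKM in R6/1. The part of this difference in the result was not tested.

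Other genes of lipid droplets differed as well. Of 15 tested genes of perilipins, lipases and droplet assembly besides Plin4, 8 were higher and 2 lower, with a median log2 difference of 0.17, beside 24.8% and 23.5% of all tested genes. Plin5, the perilipin that links droplets to mitochondria, was at 0.125 to 0.621 RPKM in WT and 0.763 to 1.56 RPKM in R6/1, without overlap (0.91, SE 0.12, limma adjusted p = 2.07e-06). At such low levels the added 0.5 RPKM shrinks the difference, and limma voom on the recovered reads gave 1.74. Cidea, a droplet fusion protein, rose by 0.61 (limma adjusted p = 0.000639), Pnpla2, the triglyceride lipase ATGL, by 0.54 (limma adjusted p = 0.000210) and Bscl2, seipin, by 0.49 (limma adjusted p = 8.26e-07).

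Mgll, the monoglyceride lipase that also degrades the endocannabinoid 2-AG, fell from 50.8 ± 2.96 to 31.6 ± 3.72 RPKM without overlap (SD, n = 9 each, log2 difference -0.68, limma adjusted p = 6.50e-09). Dgat2, which makes triglycerides, fell by 0.39 (limma adjusted p = 0.000551). Over the 9 R6/1 libraries the median r of the 15 genes with Plin4 was -0.25, with 6 positive. As descriptions, r was 0.81 for Pnpla2, 0.77 for Plin5 and -0.84 for Mgll. Without replicate 5 these were 0.82, 0.82 and -0.43.

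Genes of fasting and fatty acid oxidation, which share Pdk4 and Angptl4 with the glucocorticoid response, had 4 of 15 members higher and 1 lower, beside 24.8% and 23.5% of all tested genes, with a median log2 difference of 0.029. The share that was higher was near that of all genes. Txnip, an inhibitor of thioredoxin and of glucose uptake, rose by 0.30 (limma adjusted p = 0.0210), and the acyl-CoA thioesterases Acot1 and Acot2 by 0.23 (limma adjusted p = 0.0168) and 0.20 (limma adjusted p = 0.0169). Cpt1c, a neuronal carnitine palmitoyltransferase, fell by 0.11 (limma adjusted p = 0.0462), a call lost under 18 other settings.

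Markers of other cell types moved with Plin4 across libraries. Over the 9 R6/1 libraries, r of Plin4 with the mean log2 level of the markers was -0.76 for astrocytes, -0.79 for microglia, -0.78 for endothelial cells and 0.44 for choroid plexus. Without replicate 5 these were -0.32, -0.56, -0.44 and 0.26. That library had the highest summed level in R6/1 of the 9 astrocyte markers (1188 RPKM, range 922 to 1188), the 9 oligodendrocyte markers (1135 RPKM, range 652 to 1135) and the 8 microglia markers (179 RPKM, range 114 to 179). In WT the same sums ran from 1157 to 1521, from 1066 to 1365 and from 143 to 205 RPKM.

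In WT, r of Plin4 was 0.73 with the choroid plexus markers and -0.70 with the endothelial ones, and 0.76 with the CA3 and -0.74 with the CA1 pyramidal neuron markers. The 10 choroid plexus markers summed to 27.2 to 1091 RPKM in WT and 42.0 to 1765 RPKM in R6/1, a wide spread within both genotypes. By limma, 0 of the 10 passed between genotypes, as 0 did at an unadjusted p below 0.05, by limma voom or in the authors' deposited table. Partial correlations given the choroid plexus markers were tested by permuting the residuals left after fitting the markers. That test is approximate, since it ignores the degree of freedom spent on the markers. After adjustment 0 of 9 relations passed in WT (2 before it) and 3 of 9 in R6/1. For Sgk1 in WT this partial r was 0.79 (residual permutation p = 0.0124, adjusted 0.0546), against 0.89 without the markers. The part of these cell types in the relations was otherwise not tested. Of 7 blood markers, Hbb-bs, Hbb-bt, Hbb-b1, Hbb-b2 and Hba-a2 were listed at 0 in every library.

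Between genotypes, neuronal and glial markers were lower in R6/1 as Nr3c1, Nr3c2 and Hsd11b1 were. All 7 dentate granule markers were lower (summed 75.9 to 117 RPKM in WT, 45.8 to 56.6 RPKM in R6/1), as were 5 of 6 CA1 markers, with 1 higher, and 5 of 6 CA3 markers. For glia, 8 of 9 astrocyte, 6 of 9 oligodendrocyte and 4 of 8 microglia markers were lower, beside 23.5% of all tested genes. How far this bears on the receptors and the enzyme was not tested. For Hsd11b1 in R6/1, r with the astrocyte markers was 0.87 over 9 libraries and 0.68 without replicate 5, the highest R6/1 library for both. In WT it was -0.32.

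The study asked how chromatin at the nuclear lamina differs in R6/1, so the positions of the 10 genes were compared with the authors' deposited lamin B1 domains, 1 list per genotype (build NCBIM37). The start of 1 of the 10 genes, Pdk4, lay in a WT domain and that of 0 of 10 in an R6/1 domain, beside 20.04% and 16.1% of 22367 protein-coding starts. Pdk4 was 1.51 Mb from the nearest R6/1 domain. Plin4 lay 0.194 Mb from the nearest WT domain and 0.231 Mb from the nearest R6/1 domain, and Nr3c2 0.0213 and 0.0583 Mb. With 1 list per genotype these positions have no replicate spread.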

How the data were processed

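RNA-seq of hippocampus was analysed for 9 WT and 9 R6/1 libraries, with the genotype of each taken from its label; unused per-sample columns numbered 0. Per the labels' protocols, RNA had an integrity number of 9 to 10 and the messenger RNA libraries were stranded. TopHat, DESeq2 and the mm9 build are named for these libraries, and Bowtie for the chromatin ones, per the submitters' processing notes. The counter and its annotation are not given in the sources used here.

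The authors deposited RPKM per gene. The authors' deposited table also gives a mean normalized count (a signal scaled by size factors), log2 fold changes, their errors, the score of the test, and each p-value before and after adjustment, used here as an alternative only. Multiplied by the mean normalized count over the mean RPKM, 99.87% to 99.91% of the RPKM values were whole multiples of 1 step per library, within 0.05 of a read, so the reads per library could be recovered (12299434 to 16736544 on genes). Reads without molecular identifiers give counting error only. The authors' deposited domain lists carry 1 score per domain, not used here.

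Genes were compared with limma 3.58.1 in R 4.3.3 (lmFit, eBayes with trend) on log2(RPKM + 0.5), for the 14446 genes averaging 0.5 RPKM or more, two-sided, adjusted by Benjamini-Hochberg, at a threshold of 0.05. Relations to Plin4 were tested within a genotype by exact permutation over the libraries (scipy 1.17.1, numpy 2.4.6). For partial correlations the residuals were permuted, which is approximate and not exact. The same holds for the genotype labels permuted after scaling within genotype. The labels call the samples independent biological replicates. Gene positions and 10 kb windows came from NCBIM37, the same assembly as mm9, and promoters from RefSeq on GRCm38.p6, with no conversion between them. The fit was checked on simulated data.

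The 10 genes and the gene lists, written from general knowledge, were chosen with earlier results of these data known. The genes named are the 10, the up to 4 largest increases and up to 4 largest decreases of the 4 pathway lists with a limma adjusted p below 0.05, the 10 genes most and 5 least like Plin4 in R6/1, and the checks Xist and Htt. 1 gene that this rule names is not reported here. Ddx3y, Nfkbia and Klf9 were added after their values were seen. The alternatives were pseudocounts of 0.1 and 1, other filters, median centring, quantile normalization, each library's own total of reads, no trend, a covariate for Xist, the replicate block, unlogged values, ranks, partial correlations and leaving out libraries. limma voom on the recovered reads and the partial correlations given astrocyte, microglia and endothelial markers were added after the data were seen. ATAC-seq and the chromatin reads were not analysed here.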

Additional observations from a re-analysis of the deposited data

Results flagged for a closer look

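In each genotype, the highest and lowest library of each of 49 named genes was compared with its nearest neighbour by Dixon's ratio. Of 98 groups of 9 libraries, 11 had a library far from the others, where chance gives about 4.9, and 7 of the 11 were R6/1 replicate 5.

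In that library Hsd11b1 was at 21.5 RPKM, with the next R6/1 library at 14.8. Mgll was at 40.3 RPKM there (next 33.4), Dennd5a at 97.7 (next 82.6), Pld4 at 7.09 (next 4.28), Etv4 at 3.27 (next 2.11) and Pld2 at 6.62 (next 5.58), each the highest in R6/1. Sde2, at 6.87 RPKM, was the lowest (next 8.28). Dennd5a, Pld4, Etv4, Pld2 and Sde2 had been picked for their relation to Plin4 in R6/1, so this library also helped to choose them. Leaving it out moved the log2 difference of Hsd11b1 from -0.77 to -0.86, that of Mgll from -0.68 to -0.73 and that of Etv4 from -0.55 to -0.63.

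Elsewhere, Crhbp was at 7.70 RPKM in R6/1 replicate 7 (next 5.23). In WT, Hspa8 was at 1182 RPKM in replicate 1 (next 938), Mgll at 58.2 in replicate 7 (next 51.4) and Phyhd1 at 7.02 in replicate 5 (next 5.08). The log2 differences without these libraries were -1.29 for Crhbp, 0.63 for Hspa8, -0.66 for Mgll and 0.99 for Phyhd1.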

How the results depend on the processing

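All 10 genes kept the direction of their difference in the settings run, and 9 kept their side of the limma threshold. The exception was Pdk4, on the other side in 9 of 29 limma settings. The 10 genes were picked with this contrast known, so these calls are a description and no support. Counts of all called genes ran from 3290 to 5141 higher and from 2526 to 3749 lower, and from 3425 to 3671 and 3237 to 3504 when 1 library was left out. Scaling by each library's own total gave 5110 higher and 2526 lower, and limma voom 5141 and 2548. The median log2 difference of all genes was 0.069 and 0.076 under these settings, against 0.0036 in the main fit.

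Replicate numbers did not pair the libraries: 3 of 9 same-numbered pairs had deviations correlated above 0.1 (range -0.053 to 0.237), and 2 of 9 libraries correlated best with their own number. With the replicate block, 3666 genes were higher and 3467 lower.

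The number of relations to Plin4 that passed in R6/1 was 0 without the 2 libraries farthest from the Plin4 median, 2 given astrocyte markers, 1 given endothelial markers, and 0 to 5 when 1 library was left out, with 0 only without replicate 5. In WT it was 0 without 2 libraries, 0 given choroid plexus markers, 2 given microglia markers, and 1 to 2 when 1 library was left out, with 2 only without replicate 5. Calls were lost with r still large in several R6/1 cases. Given astrocyte markers Sgk1 had 0.77 and Nr3c1 -0.73, and given endothelial markers Cdkn1a had 0.74 and Fkbp5 0.68. Given microglia markers 3 relations passed in R6/1, those of Sgk1, Tsc22d3 and Nr3c1. There Cdkn1a had 0.72 and Fkbp5 0.68 without passing, and Zbtb16 had 0.0053. The cause was not tested.

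Several weak relations changed sign. In R6/1 without 2 libraries, r was -0.25 for Tsc22d3, -0.028 for Nr3c2 and 0.0023 for Hsd11b1. Hsd11b1 had 0.11 given astrocyte markers, Pdk4 -0.017 given microglia markers and Nr3c2 -0.74 given endothelial markers. Leaving out 1 library gave -0.74 to 0.069 for Hsd11b1. In WT, Pdk4 had -0.050 as rho, -0.048 given choroid plexus and -0.46 given astrocyte markers. Zbtb16 had -0.062 by own totals, -0.35 without 2 libraries and -0.67 given endothelial markers. Cdkn1a had -0.027 without 2 libraries. Nr3c2 had -0.29 given choroid plexus and -0.021 given endothelial markers. Hsd11b1 had 0.099 given astrocyte and 0.13 given endothelial markers, and Fkbp5 -0.062 given endothelial markers. Leaving out 1 WT library gave -0.33 to 0.40 for Zbtb16, -0.50 to 0.37 for Hsd11b1, -0.21 to 0.28 for Pdk4 and -0.067 to 0.25 for Nr3c2. The cause was not tested.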

Other observations

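Immediate early genes, which neurons switch on within minutes of activity, were lower in R6/1: of 11 tested, 0 rose and 8 fell by limma, beside 23.5% of all tested genes that were lower, with a median log2 difference of -0.64 (6 fell, and the median was -0.62, without R6/1 replicate 5). Within R6/1 they ran against Plin4. Their median r with Plin4 was -0.32 over 9 libraries, with 1 of 11 positive, and -0.71 without replicate 5, with 6 of 11 at -0.7 or below beside 2.40% of all tested genes. In WT the median r was 0.21, with 9 of 11 positive. The difference between genotypes was not tested.

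Clock genes, many of which respond to glucocorticoids, were mostly lower too, with 10 of 15 lower and 3 higher by limma, beside 23.5% and 24.8% of all tested genes, and a median log2 difference of -0.28. Their median r with Plin4 was 0.17 in R6/1, 0.0018 there without replicate 5, and -0.26 in WT. The time of day at which tissue was taken is not given in the sources used here.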
